A study of Mus musculus with 15 samples.

Results

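The cadherin and protocadherin genes of the mouse hippocampus were described here, taken as every gene with values whose symbol in the platform annotation begins with Cdh or Pcdh, apart from Cdh5. The rule found 113 array features (probes) of 64 genes, out of 27968 probes of 16401 genes that had values and 1 gene symbol. On the platform 128 features carry such a symbol, and the other 15 are not analysed here. Every probe was kept apart: 37 genes had 1 probe, 17 had 2, 5 had 3, 3 had 4, Cdh10 had 5 and Cdh1 had 10. The rule used symbols and the presence of values, not their size. The members were nonetheless chosen with earlier results of these data known.

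The study profiled whole hippocampus of adult female mice on 15 one-colour (Cy3) arrays, each a separate biological replicate, in 3 groups of 5. The groups were sedentary SAMR1 (the senescence-resistant line), sedentary SAMP8 (the senescence-accelerated line, used as a model of early ageing) and exercised SAMP8. Neither age nor exercise regimen is stated in the labels, and no SAMR1 mouse was exercised, so an interaction of line and exercise cannot be tested. SAMP8 and SAMR1 are separate inbred lines, so a difference between them is one between 2 genetic backgrounds as well as between ageing phenotypes. Levels are log2 intensities as deposited, raised to a floor of 5.29 where lower, and differences are log2 differences ± SE from limma over all 27968 probes. A probe was called where its Benjamini-Hochberg adjusted p was under 0.05. Median intensity per array ran from 207.75 to 208.67, and the number of arrays limits the precision, the median SE of a difference being 0.12.

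Cadherins are calcium-dependent adhesion proteins whose outer domains bind like molecules on a neighbouring cell. Classical cadherins join the actin skeleton through catenins and line both sides of synapses, while the nonclustered delta protocadherins signal to actin regulators and guide axon growth and synapse number. The alpha, beta and gamma protocadherins lie in 3 neighbouring gene clusters, and each neuron uses its own selection of them, which gives its processes an identity for avoiding one another.

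Between the sedentary lines the called members were 3 genes: Pcdh9, Pcdh17 and Cdh6. Pcdh9 is a delta-1 protocadherin, a group with a long cytoplasmic tail, and Pcdh17 is a delta-2 protocadherin that brings the actin-regulating WAVE complex to growing axons. Cdh6 is a type II classical cadherin, a class that marks subsets of neurons and their circuits. One probe of Pcdh9 was 2.73-fold lower in SAMP8 while other Pcdh9 probes were 1.29-fold and 1.36-fold higher. One probe of Pcdh17 was 1.44-fold higher, and the only Cdh6 probe was 1.5-fold lower. In all, 5 of 113 member probes were called, 3 higher and 2 lower in SAMP8. That is 4.42% of the members against 2.45% of all probes tested. Called higher were 2.65% of members against 1.25% of all probes, and called lower 1.77% against 1.2%. By gene, 3 of 64 had a called probe (4.69%) against 3.35% of all genes.

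The promoter sequences of these 3 genes are shown because they are the genes whose probes differed between the lines. They were taken from RefSeq on build GRCm38.p6 and run from 250 bases before the listed start to 50 after it, on the strand of the gene. Pcdh9 lies at chr14:93890630-93890929 on the minus strand, Pcdh17 at chr14:84443313-84443612 on the plus strand and Cdh6 at chr15:13173626-13173925 on the minus strand. Capitals mark matches, on either strand, to the 5 motifs searched, which were the TATA box (TATAAA), the CCAAT box (CCAAT), the GC box (GGGCGG), the E-box (CACGTG) and the cyclic AMP response element (TGACGTCA).

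Pcdh9: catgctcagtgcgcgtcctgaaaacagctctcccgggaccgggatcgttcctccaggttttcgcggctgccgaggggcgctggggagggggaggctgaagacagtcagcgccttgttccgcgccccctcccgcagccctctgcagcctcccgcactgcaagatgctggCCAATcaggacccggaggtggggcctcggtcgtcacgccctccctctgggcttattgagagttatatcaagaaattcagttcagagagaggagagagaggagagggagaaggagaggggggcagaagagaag

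Pcdh17: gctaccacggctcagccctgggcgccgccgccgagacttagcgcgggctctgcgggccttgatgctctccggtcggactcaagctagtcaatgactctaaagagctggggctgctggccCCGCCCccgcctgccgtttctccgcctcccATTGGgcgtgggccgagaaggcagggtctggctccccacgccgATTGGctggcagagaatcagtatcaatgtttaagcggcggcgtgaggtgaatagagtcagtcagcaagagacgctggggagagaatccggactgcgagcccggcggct

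Cdh6: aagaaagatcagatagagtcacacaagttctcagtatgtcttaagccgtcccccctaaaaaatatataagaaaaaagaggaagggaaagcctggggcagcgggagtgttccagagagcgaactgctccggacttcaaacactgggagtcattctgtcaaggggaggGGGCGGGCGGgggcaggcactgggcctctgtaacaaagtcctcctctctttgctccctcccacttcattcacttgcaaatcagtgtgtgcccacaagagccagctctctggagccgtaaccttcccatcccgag

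The Pcdh17 window held 2 CCAAT box matches and 1 GC box match, 26 CpG dinucleotides and 65% G or C. The Pcdh9 window held 1 CCAAT box match, 18 CpG and 62.7% G or C, and a second start is listed for this gene 10 bases away. The Cdh6 window held 2 overlapping GC box matches, 8 CpG and 53% G or C. Among all 32851 promoters listed, the median was 7 CpG, and 37.4% held the CCAAT box and 35.7% the GC box. The commonness of these letters makes a match a description only. The TATA box letters were in 13.6% of promoters, the E-box in 7.15% and the cyclic AMP response element in 1.79%, and none of the 3 windows held them. Of the 64 member genes, 26 matched the promoter table.

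Pcdh9 had 4 probes, of which features 22681, 27190 and 36414 are annotated to one GenBank sequence and feature 40920 to another. On feature 40920 the sedentary SAMR1 arrays read 11.45, 11.75, 11.66, 10.90 and 11.98, the sedentary SAMP8 arrays 10.34, 9.80, 10.27, 10.07 and 10.02, and the exercised SAMP8 arrays 10.17, 10.37, 10.01, 9.72 and 9.71. Every SAMR1 array was above every SAMP8 array. The difference between the sedentary lines was -1.45 ± 0.18 (95% interval -1.83 to -1.07, limma adjusted p = 9.17e-05, n = 5 each).

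On Pcdh9 feature 36414 the SAMR1 arrays read 10.24, 10.18, 10.07, 10.12 and 10.20, the sedentary SAMP8 arrays 10.82, 10.60, 10.57, 10.48 and 10.55, and the exercised ones 10.59, 10.56, 10.53, 10.38 and 10.55. Here every SAMP8 array was above every SAMR1 array, the opposite order (0.44 ± 0.08, adjusted p = 0.00378). On feature 22681 SAMR1 read 7.60, 7.85, 7.76, 7.76 and 7.66, sedentary SAMP8 8.05, 8.16, 8.14, 8.05 and 8.06, and exercised SAMP8 7.98, 7.73, 8.11, 8.06 and 7.96. The sedentary groups did not overlap, while 1 exercised array lay among the SAMR1 values (0.36 ± 0.08 between the sedentary lines, adjusted p = 0.0222). This call was lost in the fits that left out SAMR1 replicate 1, SAMR1 replicate 5, sedentary SAMP8 replicate 2 and sedentary SAMP8 replicate 3, with an adjusted p of up to 0.0678.

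Feature 27190 read 9.87, 10.44, 10.11, 9.62 and 10.36 in SAMR1, 10.64, 10.58, 10.73, 10.47 and 10.56 in sedentary SAMP8 and 10.35, 10.79, 10.49, 10.37 and 10 in exercised SAMP8. The sedentary groups again did not overlap, with SAMP8 on top, but the SAMR1 arrays were widely spread and the test was not passed (0.52 ± 0.15, adjusted p = 0.107). In all, 7 of 113 member probes had no overlap between the sedentary lines (6.19%, against 4.12% of all probes). They were the 4 of Pcdh9 and 1 each of Pcdh17, Cdh6 and Pcdhb2.

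**Figure D1:**
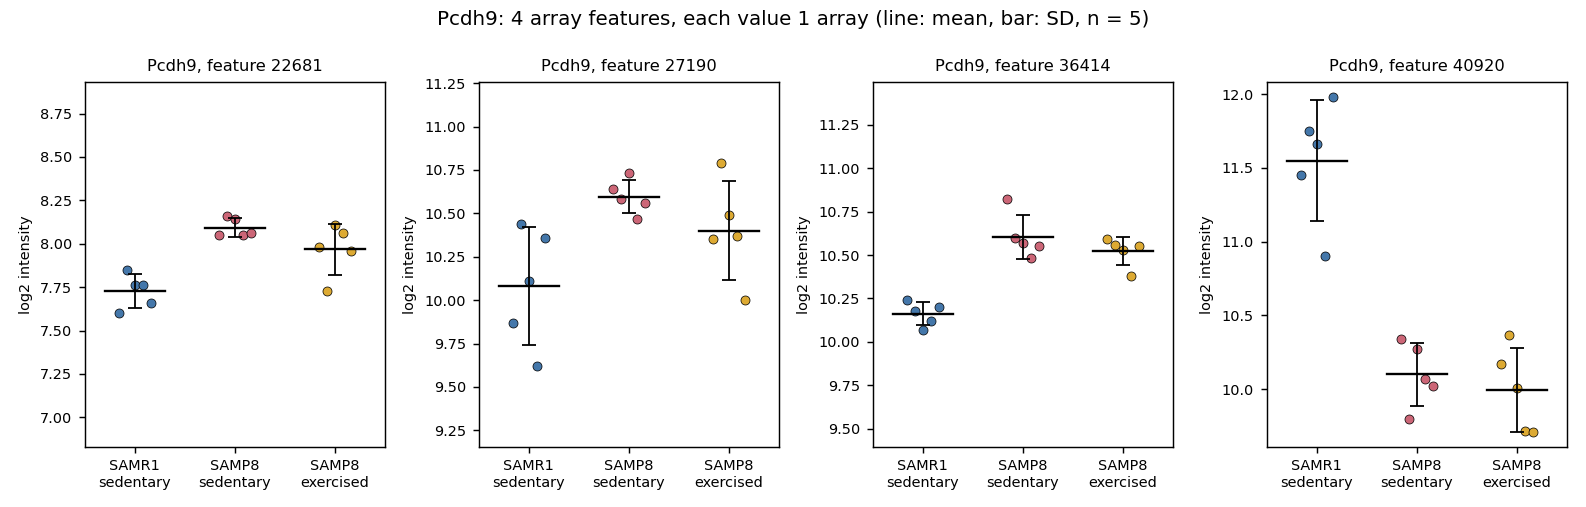
Log2 intensity of the 4 Pcdh9 features on each array, by group, with the mean (line) and SD (bar) of 5 arrays; the vertical axis differs between panels. Feature 40920 fell from a mean of 11.55 in sedentary SAMR1 to 10.10 in sedentary SAMP8, whereas features 22681 and 36414 rose and feature 27190 was 0.52 higher without passing the test.

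Whether the Pcdh9 probes changed unequally was tested on the log2 difference between 2 features on the same array. For features 36414 and 40920 this difference was -1.39 ± 0.40 (SD, n = 5) in sedentary SAMR1, 0.51 ± 0.19 in sedentary SAMP8 and 0.52 ± 0.25 in exercised SAMP8. It was 1.89 ± 0.17 larger in sedentary SAMP8 than in SAMR1 (limma adjusted p = 3.33e-06 over 11567 pairs). The same change was 1.97 ± 0.12 for feature 27190 (adjusted p = 2.76e-08) and 1.82 ± 0.21 for feature 22681 (adjusted p = 4.87e-05). These 3 tests share feature 40920 and are not independent. The ratio of features within Pcdh9 therefore differed between the lines by more than the spread between arrays. Where in the transcripts each feature lies was not analysed here.

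Averaged over its 4 probes, Pcdh9 differed by -0.03 (adjusted p = 0.958), a mean of opposite changes. Among the 49 member pairs of 27 genes with several probes, 4 pairs were called (8.16%, against 1.83% of all pairs), the 3 of Pcdh9 and 1 of Pcdh17.

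**Figure D2:**
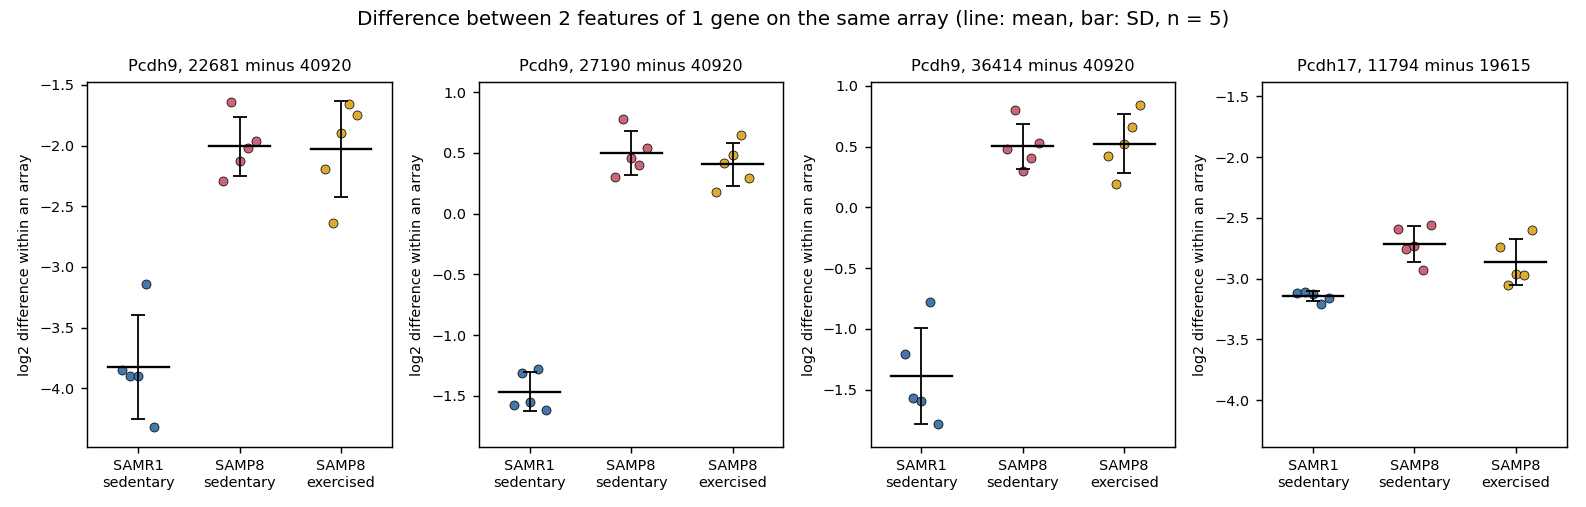
Log2 difference between 2 features of the same gene on the same array, by group, with the mean (line) and SD (bar) of 5 arrays. For Pcdh9 all 5 SAMR1 arrays lay below all 10 SAMP8 arrays in each panel, and for Pcdh17 the SAMR1 arrays averaged -3.14 against -2.71 in sedentary SAMP8.

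Pcdh17 had 3 probes. On feature 11794 the SAMR1 arrays read 9.84, 9.97, 9.84, 9.79 and 10.02, the sedentary SAMP8 arrays 10.64, 10.21, 10.12, 10.53 and 10.58, and the exercised SAMP8 arrays 10.58, 10.18, 10.20, 10.31 and 10.35. All SAMP8 arrays were above all SAMR1 arrays (0.52 ± 0.11 between the sedentary lines, limma adjusted p = 0.0136).

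The brightest Pcdh17 probe, feature 19615, read 12.96, 13.08, 12.97, 13.00 and 13.18 in SAMR1, 13.23, 12.97, 12.85, 13.46 and 13.14 in sedentary SAMP8 and 13.32, 13.23, 13.16, 13.28 and 12.95 in exercised SAMP8. Its groups overlapped (0.09 ± 0.11, 95% interval -0.14 to 0.32). Feature 7433, a dim probe at 6.09 on average, gave 0.00 ± 0.19. The change of feature 11794 exceeded that of feature 19615 by 0.44 ± 0.10 (adjusted p = 0.0369 over all pairs). Leaving out any sedentary array other than SAMP8 replicate 4 ended that call, with an adjusted p of up to 0.113. The mean of the 3 probes differed by 0.20 (adjusted p = 0.505).

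Cdh6 had 1 dim probe, feature 29890. It read 6.29, 6.40, 6.35, 6.28 and 6.53 in SAMR1, 5.89, 5.87, 5.91, 5.29 and 5.94 in sedentary SAMP8, and 5.82, 5.93, 5.90, 5.75 and 5.53 in exercised SAMP8. Each SAMR1 array was above each SAMP8 array (-0.59 ± 0.12, adjusted p = 0.0101). Sedentary SAMP8 replicate 4 stood at the floor, and with the floor raised to the 20th percentile of all values the difference was -0.38, still called.

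**Figure D3:**
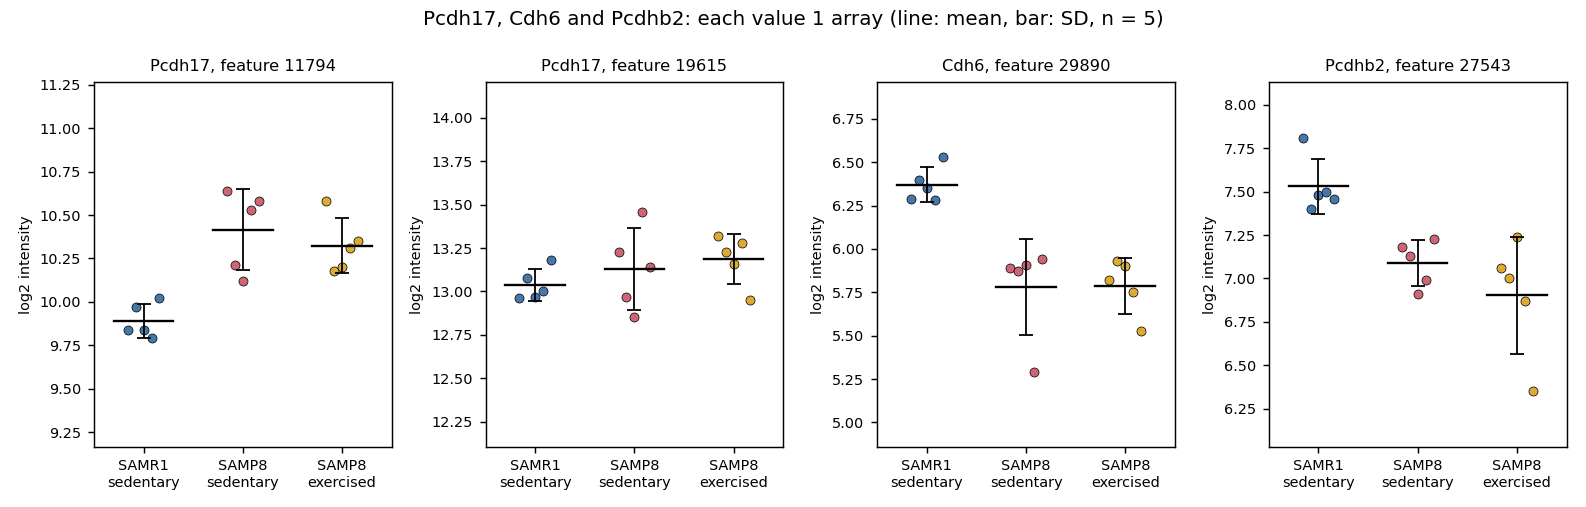
Log2 intensity on each array of 2 Pcdh17 probes and the Cdh6 and Pcdhb2 probes, by group, with the mean (line) and SD (bar) of 5 arrays; the vertical axis differs between panels. The SAMR1 values of Pcdh17 feature 11794 (9.79 to 10.02) lay below, and those of Cdh6 (6.28 to 6.53) above, all SAMP8 values.

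Pcdh17 and Pcdh9 both lie on chromosome 14, where their promoter windows begin at bases 84443313 and 93890630. They are near each other in the order of tested genes. In the gene order of the RefSeq table, the tested genes from Pcdh8 to Pcdh9 run Pcdh8, Pcdh17, Diaph3, Tdrd3, Pcdh20, Pcdh9. Among the 5 tested genes on either side of each, the only gene called between the sedentary lines was the other one, so Diaph3, Tdrd3 and both remaining protocadherins were not called. Pcdh8, a synaptic protocadherin induced by neuronal activity, was 0.29 ± 0.13 higher (adjusted p = 0.371 in the limma fit) and Pcdh20 0.26 ± 0.11 higher (adjusted p = 0.391). Around Cdh6, on chromosome 15, Mtmr12 and Drosha were called among 10 neighbours, where 3.35% of all genes had a called probe. A link between these calls was not tested.

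The labels number the replicates but state no pairing. Deviations of same-numbered sedentary arrays correlated, which was taken as pairing, without a comparison to differently numbered arrays. The 10 sedentary arrays were therefore also fitted with replicate as a block. That fit, which rests on the assumed pairing, called 11 member probes (9.73%, against 3.47% of all probes). Several of them are probes of the same gene, namely Pcdh9 features 22681, 36414 and 40920 and 4 features of Cdh1. A share by gene was not computed for this fit. The additional probes were Pcdhb2 (-0.44, adjusted p = 0.0337), Pcdh10 feature 7944 (-0.38, adjusted p = 0.0457) and 4 probes of Cdh1 (0.41 to 0.58, adjusted p between 0.00693 and 0.0331). The remaining Cdh1 features were not called in that limma fit (adjusted p from 0.103 to 0.719). On each of the 4 called Cdh1 probes SAMR1 replicate 5 stood at the floor, and on features 29622 and 34664 SAMR1 replicate 1 did too. Pcdh10 is a delta-2 protocadherin needed for activity-dependent synapse elimination.

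Its feature 7944 read 6.44, 6.71, 6.76, 6.69 and 6.65 in SAMR1 and 5.91, 6.24, 6.28, 6.39 and 6.52 in sedentary SAMP8, which overlap (adjusted p = 0.0849 without the block). The other 3 Pcdh10 probes differed by between -0.24 and -0.08 and none was called.

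Cdh1, E-cadherin, is the classical cadherin of epithelia. Its 10 features are annotated to 1 GenBank sequence and may be copies of 1 probe, so they are not independent. Averaged over the 10, SAMR1 arrays read 5.66, 5.64, 6.0, 5.88 and 5.46, sedentary SAMP8 arrays 5.79, 6.22, 6.60, 6.26 and 5.68, and exercised SAMP8 arrays 5.95, 5.82, 5.69, 5.64 and 6.27. The groups overlapped and all levels were near the floor, at which 10 of 150 values stood. All 10 estimates were above 0 between the sedentary lines and below 0 with exercise. Both comparisons use the sedentary SAMP8 arrays, with opposite sign, so these directions are not independent. The mean of the 10 gave 0.38 ± 0.17 between the lines (adjusted p = 0.388 in limma). The deviations of the 10 features from their group means correlated at 0.42 to 0.94 over 15 arrays (median 0.66 of 45 pairs). All 10 were read on the same arrays, and the source of the correlation was not tested.

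**Figure D4:**
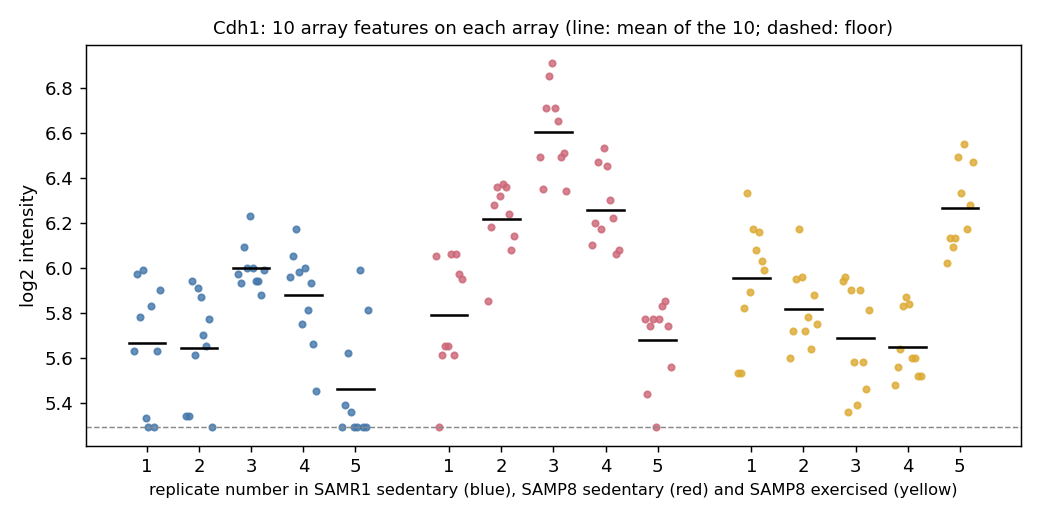
Log2 intensity of the 10 Cdh1 features on each of the 15 arrays, with their mean on that array (line) and the floor of 5.29 (dashed). The mean ran from 5.46 to 6.0 in sedentary SAMR1, from 5.68 to 6.60 in sedentary SAMP8 and from 5.64 to 6.27 in exercised SAMP8.

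Some lists of cell type markers had calls between the sedentary lines in the same fit, where 2.45% of all probes were called. Of 21 probes of pericyte and smooth muscle genes, 6, of 6 of 7 genes, were called higher in sedentary SAMP8. The log2 of their summed level ran from 12.64 to 13.31 in SAMR1 and from 13.39 to 13.79 in sedentary SAMP8. Of 34 probes of meningeal and fibroblast genes, 14, of 4 of 10 genes, were called higher, with summed levels that overlapped (12.88 to 14.11 against 13.93 to 14.72). Apart from those of Aldh1a2, Col3a1 and Col1a2, these calls were all features of Col1a1. No choroid plexus probe of 23 was called, and their summed level varied widely (12.77 to 14.43 and 11.55 to 14.47). None of 15 neuronal probes was called. Of the oligodendrocyte list 1 of 16 probes, of Mbp, was called, and it was lower in SAMP8 (-1.02 ± 0.11). The summed level of that list ran from 15.99 to 16.23 in SAMR1 and from 15.65 to 16.21 in sedentary SAMP8. Genes that mark hippocampal subfields were present (7 genes, summed log2 level 14.22 to 15.52 in SAMR1 and 14.45 to 14.94 in sedentary SAMP8), with 1 of 12 probes called, Spink8, which was 1.07 ± 0.13 higher in SAMP8. The thalamic list had 1 call of 13 probes, Rora, also higher, and the astrocyte, microglial, endothelial and striatal lists had none. The summed level of the striatal list ran from 9.95 to 11.69 in SAMR1 and from 9.95 to 10.06 in sedentary SAMP8. No gene of these lists was at the floor on every array. Their part in the cadherin differences was not tested. In whole tissue, fewer cells of a type and less RNA per cell cannot be told apart.

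Among the type I classical cadherins, 16 probes of 5 genes, no probe was called between the sedentary lines without the replicate block, and with it on the sedentary arrays 4 of the Cdh1 probes were, as given above. The median difference was 0.34, with 14 estimates above 0 of which 10 were the features of Cdh1. Cdh2, N-cadherin, the main classical cadherin of synapses, gave 0.02 ± 0.14 at a mean level of 9.27. Cdh4, R-cadherin, had the lowest p of the group with feature 24543, at 0.35 ± 0.09 (adjusted p = 0.0641). That probe read 8.69, 8.64, 8.67, 8.57 and 8.83 in SAMR1 and 9.10, 9.0, 8.78, 9.09 and 9.17 in sedentary SAMP8, with only SAMP8 replicate 3 below the highest SAMR1 array. It was called without that array (adjusted p = 0.0246), without exercised SAMP8 replicate 5 (0.0496) and with the floor at the 20th percentile (0.0432). The other Cdh4 probes gave 0.22 ± 0.12 and -0.05 ± 0.15. Cdh3, P-cadherin, gave -0.04 ± 0.14. Cdh15, the cadherin of muscle precursors and cerebellar granule cells, gave 0.51 ± 0.18 (adjusted p = 0.217).

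The type II classical cadherins had 21 probes of 11 genes. Apart from Cdh6 none was called, and the median difference was -0.01. Cdh8, which marks excitatory circuits, had the brightest probe of the group, feature 9452, at a mean of 11.05 (-0.16 ± 0.11). Cdh9, which takes part in forming mossy fibre synapses on CA3 neurons, gave -0.10 ± 0.16 at a mean level of 6.17. The 5 Cdh10 probes ran from -0.04 to 0.14, and the 3 of Cdh11, a cadherin of mesenchyme and of neurons, from 0.02 to 0.15. For Cdh11 feature 17488, the most precise of its probes, the estimate was 0.15 ± 0.10.

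The other cadherins, 10 probes of 8 genes, had no call and a median of 0.10. Cdh13, T-cadherin, which is held in the membrane by a lipid anchor, read 11.43 on average on feature 14880 and gave -0.01 ± 0.10. Its dim feature 25461 had the lowest p of the group (0.22 ± 0.15, adjusted p = 0.704 in limma). Cdhr1, a photoreceptor cadherin, and Cdhr5, of the intestinal brush border, gave 0.05 ± 0.25 and, on feature 10838, 0.03 ± 0.33. With the replicate block on the sedentary arrays both SEs were 0.11.

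Among the other delta protocadherins, Pcdh1 gave 0.01 ± 0.15 and the Pcdh7 probes 0.02 ± 0.14 and -0.26 ± 0.15. Pcdh19, an X-linked gene whose mutation causes epilepsy in human carriers, gave 0.16 ± 0.10 on feature 22333, at 12.39 on average, and 0.00 ± 0.11 on feature 16902. The remaining nonclustered protocadherins, Pcdh12, Pcdh15 and Pcdh20, had 6 probes, all with estimates above 0 (median 0.29) and none called. Pcdh12 is expressed in endothelium. Its features 40027 and 44848 gave 0.35 ± 0.12 (adjusted p = 0.2) and 0.32 ± 0.15 (adjusted p = 0.459).

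The clustered protocadherins had 42 probes of 29 genes, and none was called between the sedentary lines. The median was -0.13 for 6 alpha probes, 0.01 for 27 beta probes and -0.02 for 9 gamma probes, beside 0.03 over all members and 0.00 over all probes. Beta estimates ran from -0.44 to 0.24 and gamma estimates from -0.14 to 0.11. Alpha genes share their last exons, as do gamma genes, so a feature annotated to 1 gene may read others of its cluster. Pcdhga7 feature 8220 was the brightest gamma probe (14.27 on average, -0.03 ± 0.11) and Pcdha9 feature 33361 the brightest alpha probe (12.82, -0.26 ± 0.16). The lowest p of the alpha group was at Pcdha6 feature 20633 (0.15 ± 0.08, adjusted p = 0.517) and of the gamma group at Pcdhga1 (0.11 ± 0.11, adjusted p = 0.804).

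The beta gene Pcdhb2 read 7.81, 7.40, 7.48, 7.50 and 7.46 in SAMR1, 7.18, 7.13, 6.91, 6.99 and 7.23 in sedentary SAMP8 and 7.06, 7.0, 7.24, 6.87 and 6.35 in exercised SAMP8. All SAMR1 arrays were above all SAMP8 arrays. Between the sedentary lines the test was passed with the replicate block, as above, and not in the fit of 15 arrays (-0.44 ± 0.14, adjusted p = 0.135). None of the 26 other beta probes was called in any of the 3 comparisons.

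**Figure D5:**
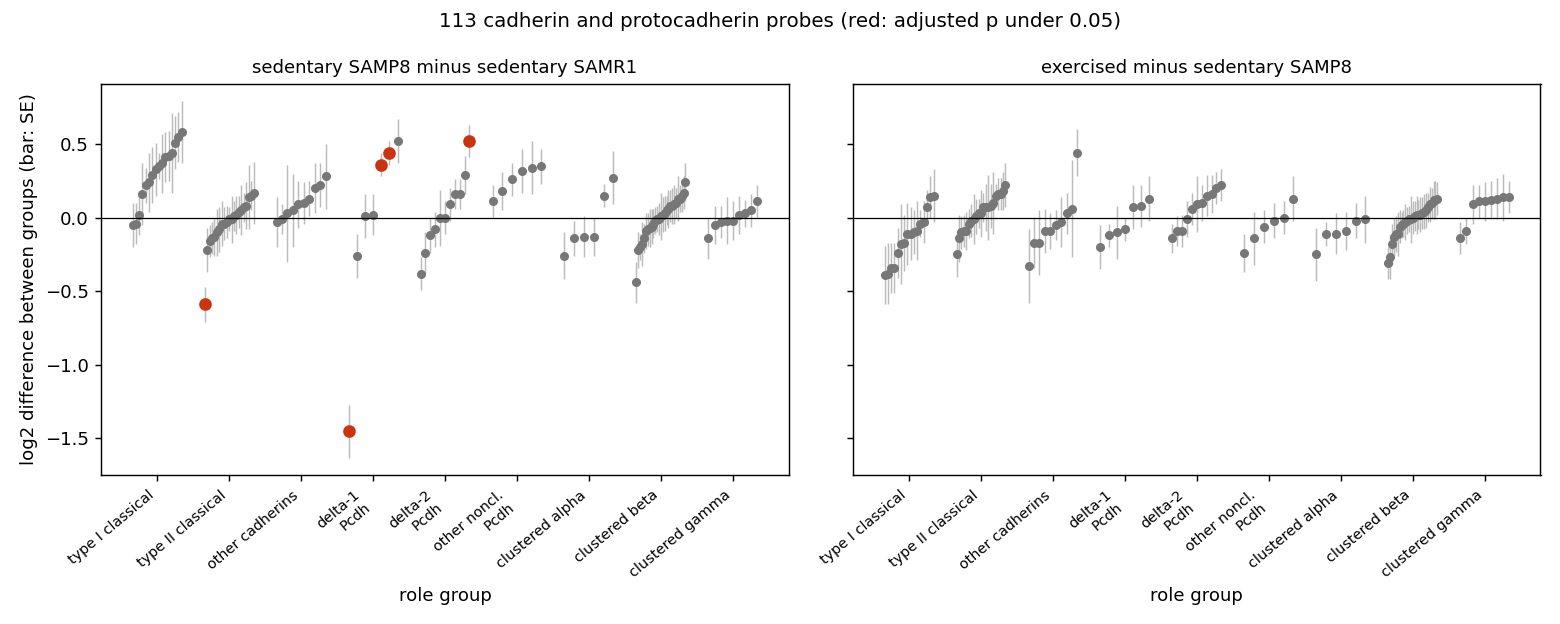
Log2 difference ± SE (bar) of each of the 113 probes, by role group, between the sedentary lines and between exercised and sedentary SAMP8; red points passed an adjusted p of 0.05. The 5 red points of the line comparison run from -1.45 to 0.52, and the exercise comparison has none.

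Exercise in SAMP8 gave no called member probe and no called probe in the whole table (0%). At an unadjusted p under 0.05 in limma there were 2 of 113 member probes (1.77%) against 3.66% of all probes, and no member had groups without overlap (0.429% of all probes). Estimates over the members ran from -0.39 to 0.44 with a median of -0.01. The lowest p was at the beta protocadherin Pcdhb21, which read 9.73, 9.86, 9.64, 10.03 and 9.89 in sedentary and 9.36, 9.73, 9.69, 9.51 and 9.29 in exercised SAMP8. The groups overlapped (-0.31 ± 0.11, adjusted p = 1 in limma). Cdhr2, a brush border cadherin read by a dim probe, stood at 5.39, 5.57, 6.34, 5.77 and 5.85 in sedentary and 6.41, 6.21, 6.13, 6.30 and 6.09 in exercised SAMP8 (0.44 ± 0.16, adjusted p = 1). The next were Pcdh10 feature 7944 (0.22 ± 0.11) and the Cdh1 features 245 and 34664 (-0.34 each).

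For the probes that differed between the lines, the 95% intervals of the exercise difference were -0.48 to 0.28 for Pcdh9 feature 40920, -0.25 to 0.09 for feature 36414 and -0.30 to 0.05 for feature 22681. They were -0.33 to 0.14 for Pcdh17 feature 11794 and -0.25 to 0.26 for Cdh6. Every one of these intervals includes 0. The line call that picked these probes used the same sedentary SAMP8 arrays, with opposite sign. Their exercise differences are therefore not independent of that choice. An exercise difference in Pcdh9 feature 40920 as large as its line difference of -1.45 lies outside its interval. The within-array differences of the Pcdh9 probes moved by 0.02, -0.09 and -0.02 with exercise, and no pair of any gene was called.

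Exercised SAMP8 against sedentary SAMR1 differs in line and exercise at once and shares its arrays with the other 2 comparisons. Here 5 member probes were called (4.42%, against 3.78% of all probes), 2 higher (1.77% against 1.53%) and 3 lower (2.65% against 2.25%). By gene, 4 of 64 had a called probe (6.25%, against 5.31%), and 10 probes had no overlap (8.85%, against 4.82%). Pcdh9 feature 40920 was 2.94-fold lower (-1.55 ± 0.18, limma adjusted p = 4.34e-05) and Cdh6 lower by -0.58 ± 0.12 (adjusted p = 0.00975). Pcdh9 feature 36414 was higher (0.36 ± 0.08, adjusted p = 0.0158), as was Pcdh17 feature 11794 (0.43 ± 0.11, adjusted p = 0.039). Pcdh9 features 22681 and 27190 were not called (0.24 ± 0.08 and 0.32 ± 0.15). Among pairs of probes 3 of the 49 were called, all of Pcdh9 (6.12%, against 3.95% of all pairs).

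The fifth call was Pcdhb2, 1.54-fold lower (-0.62 ± 0.14, adjusted p = 0.0148). It was lost without SAMR1 replicate 1, whose value was the highest of its group (adjusted p = 0.0501), and that fit kept 3 of the 5 calls. The Pcdh17 call was lost without any of 7 arrays, namely SAMR1 replicates 1 to 4 and exercised replicates 1, 4 and 5 (adjusted p up to 0.0961). Just outside the threshold, and named after their values were seen, were Cdh15 (0.66 ± 0.18, adjusted p = 0.0502) and Pcdh8 (0.46 ± 0.13, adjusted p = 0.0533). The replicate block over 15 arrays called Cdh15 (adjusted p = 0.0245). In this comparison 13 of 16 oligodendrocyte probes, of 2 of 3 genes, were called lower in exercised SAMP8 (summed log2 level 15.42 to 15.93, against 15.99 to 16.23 in SAMR1). All were probes of Mbp except feature 44745, of Mog, and probes of the same gene are not independent. Spink8 and Rora were again called higher (1.38 and 0.52). Of the pericyte list 2 of 21 probes were higher (13.33 to 13.57, against 12.64 to 13.31) and of the meningeal list none was called. Their part in the cadherin differences was not tested.

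Genes that act with cadherins were read from 4 lists between the sedentary lines, where 2.45% of all probes were called. Of 49 probes of 19 catenin and junction genes 1 was called, Nectin1, an immunoglobulin-type adhesion protein of adherens and synaptic junctions (0.41 ± 0.10 higher in SAMP8, limma adjusted p = 0.0448). None was called among 39 probes of 16 other cadherin superfamily genes (the Fat, Celsr and calsyntenin families among them), 49 of 19 genes of protocadherin choice and signalling, and 32 of 11 genes of cadherin processing and traffic. The medians of the 4 lists were 0.06, 0.05, 0.00 and 0.01, beside 0.00 over all probes.

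With exercise none of their probes was called. In exercised SAMP8 against sedentary SAMR1, 3.78% of all probes were called. Here the 49 catenin and junction probes had 1 called higher and 2 lower. The 39 probes of other superfamily genes had 1 higher. The 49 of protocadherin choice and signalling had 2 higher and 1 lower, and the 32 of processing and traffic none. Nectin1 was again higher (0.54, limma adjusted p = 0.00591). The catenins Ctnna2, a neuronal actin linker, and Pkp4 were lower (-0.49 and -0.42, adjusted p = 0.03 and 0.0208). Celsr2, of planar cell polarity, was higher (0.47, adjusted p = 0.0241). Smchd1, a chromatin protein that silences clustered protocadherins, was higher on 2 probes (0.46 and 0.39, adjusted p = 0.0147 and 0.014). The cohesin subunit Stag1 was lower (-0.56, adjusted p = 0.0223).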

How the data were processed

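Hippocampal RNA was measured on 15 one-colour Agilent arrays. The deposited table holds linear intensity values (lowest 4.02, highest 65480.37), with a column for each array. The authors used limma per the submitters' processing notes, which name no version. The sources used here do not give the background step, slides or scans. Columns shared nearly the same sorted values, as after quantile normalization, which is read from the values. Of 45220 rows, 10741 were empty. Of 34479 features with values, 27968 had 1 gene symbol in the platform annotation (38 had several, 6473 none) and were tested. Those are numbered features without probe names.

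Before log2, intensities below 39.17, the 5th percentile over the table, were set to that floor, which touched 2.65% of member values and 22 member probes. Of the 113 member probes, 55 were above the dimmest 40% of probes (log2 7.22). The deposited intensities were fitted in R 4.3.3 with limma 3.58.1 (functions lmFit and eBayes, two-sided tests, 15 arrays, 1 term per group, 12 residual degrees of freedom before moderation), with Benjamini-Hochberg adjustment over all 27968 probes. Pairs of probes of a gene were compared on their log2 difference within an array, each against the gene's brightest probe, with adjustment over 11567 pairs of 6970 genes. Deviations of same-numbered sedentary arrays from their group means correlated at 0.19 to 0.46 in all 5 pairs. Pairing was assumed from this for the replicate block. The labels state none, and differently numbered arrays were not compared. For exercised and sedentary SAMP8 the correlations ran from -0.11 to 0.31, and for exercised SAMP8 and sedentary SAMR1 from 0.00 to 0.31. The fit of single probes by group was tested on simulated data, and the pair fit, the replicate block and the means per gene were not.

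The members, role groups and gene lists were chosen with earlier results of these data known. Named are the genes with a called probe or pair, the 5 probes of lowest p where fewer than 5 were called, and per role group the brightest gene and the probe of lowest p. Other probes are given as examples. Alternatives changed the floor, the filter on dim probes, the features tested, the variance model, the centring, the block, the arrays fitted and the value per gene.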

Additional observations from a re-analysis of the deposited data

Results flagged for a closer look

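In 25 named probes, each of the 75 groups of 5 arrays was checked for an array far from the others, and 3 such values were found. Chance gives such a value in about 1 of 20 groups. Cdh6 feature 29890 stood at the floor of 5.29 in sedentary SAMP8 replicate 4, with the other arrays of that group at 5.87 to 5.94. Pcdh9 feature 36414 read 10.38 in exercised SAMP8 replicate 4, with the others at 10.53 to 10.59. Pcdhb2 read 7.81 in SAMR1 replicate 1, with the others at 7.40 to 7.50. Without that array the Pcdhb2 difference between exercised SAMP8 and sedentary SAMR1 was no longer called (adjusted p = 0.0501 in limma).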

How the results depend on the processing

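The count of 5 member probes called between the sedentary lines rose to 11 with the replicate block on the sedentary arrays. With the mean of all probes per gene it was 1 gene, where 3 genes had a called probe, and for exercised SAMP8 against sedentary SAMR1 2 genes, where 4 had one. Under that mean, which averages opposite changes, Pcdh9 stood at -0.03 between the sedentary lines, against higher values on features 36414 and 22681, and at -0.16 in exercised SAMP8 against sedentary SAMR1, where feature 36414 was higher. Leaving out 1 array at a time gave 4 to 7, 0 and 3 to 6 member probes called in the 3 comparisons (line, exercise, both), 531 to 766, 0 to 1 and 715 to 1086 of all probes, and 3 to 4 pairs. The replicate block over 15 arrays called 5, 0 and 6 member probes. In the fits that left out 1 array, the line calls of Pcdh9 features 40920 and 36414, Pcdh17 feature 11794 and Cdh6 were kept (adjusted p up to 0.000476, 0.0144, 0.0456 and 0.0337). Cdh6 was not tested without the dimmest 40% of probes, and Cdh4 feature 24543 was called there (adjusted p = 0.0423). With only the 2 groups compared, Pcdhb2 was called between the sedentary lines (adjusted p = 0.0364), and its call against exercised SAMP8 was lost (0.0505). Leaving out SAMR1 replicate 1 kept 3 of the 5 member calls in exercised SAMP8 against sedentary SAMR1. Apart from these, no setting tried moved the member counts by more than 1.5 times. Dim probes bound the readings: 22 member probes stood at the floor on some array.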
